A study of Homo sapiens with 2 samples.

Results

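The mRNAs of 10 enzymes that make serine, turn it into glycine and feed carbon units into the folate cycle were compared between an RNA immunoprecipitation (IP) and its input. The cells were Huh-7, a long-established line from a human liver tumour. The genes, GCSH, GLDC, AMT, SHMT1, SHMT2, PHGDH, PSAT1, PSPH, MTHFD1 and MTHFD2, were chosen by symbol with earlier results of these libraries in view, and all 10 were found among the 25556 genes of the deposited expression table. Each group was 1 library of wild-type cells with no other treatment: the input was RNA of 10% of the lysate, and the IP was made from the other 90%. According to the series design the IP used an antibody to SRSF7, its treatment label reads SPSF7, and the protocol of the samples has anti-YTHDF2 on poly(A) RNA. Both cannot hold, so the libraries are called IP and input. SRSF7 is a splicing factor and YTHDF2 a reader of N6-methyladenosine in mRNA. Since neither group has a replicate, the differences below were not tested.

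Serine is built from the glycolytic intermediate 3-phosphoglycerate in 3 steps, by PHGDH, PSAT1 and PSPH. The serine hydroxymethyltransferases, SHMT1 in the cytosol and SHMT2 in mitochondria, split serine into glycine and a carbon unit carried on tetrahydrofolate, and MTHFD1 and MTHFD2 oxidise or reduce that unit in the same compartments. The glycine cleavage system, a mitochondrial complex prominent in liver, breaks glycine down with 4 proteins: the P protein GLDC, the lipoate-carrying H protein GCSH, the T protein AMT and the L protein DLD, which it shares with other dehydrogenase complexes.

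Of 5897293 gene-assigned reads in the IP and 2782045 in the input, these enzymes took 4848 (0.0822%) and 1971 (0.0708%). Values are RPKM, reads per kilobase of merged exons, scaled to all reads assigned to genes. Ratios are IP RPKM over input RPKM with exact 95% intervals of the read counts, which cover counting error only and take reads as independent. If both mates of each read pair were counted, those intervals are too narrow, so the main ones are also given with the reads halved. The hepatocyte markers fixed for the check were all 8 present, from 26.4 RPKM (HNF4A) to 2814 RPKM (AFP) in the input. Of the markers of other cells, the measured ones of leukocytes, endothelium and fibroblasts stood at 6.34 RPKM or less, while the cholangiocyte markers EPCAM, KRT19 and KRT7 had 51.9, 35.1 and 0.719 RPKM and the erythroid marker HBB 738 RPKM in the input. The summed erythroid markers stood at 893 RPKM in the input and 574 in the IP, and their part in the results below was not tested.

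The enzymes lay on both sides of a ratio of 1, as the genes tested did in general. On the deposited scale, 5 were higher in the IP (SHMT2, GLDC, PHGDH, MTHFD1 and AMT) and 5 lower (SHMT1, PSPH, PSAT1, MTHFD2 and GCSH), with ratios from 1.72 down to 0.115, and 42.3% of all genes tested had a ratio below 1. All 10 passed the filter of a mean of at least 1 RPKM. On the scale of log2((IP + 1)/(input + 1)), 1 of them, GCSH, was at least 2-fold lower and 0 were at least 2-fold higher, where 8.25% and 11.3% of the 14057 genes tested were. Their median log2 ratio was -0.01, against 0.14 for all genes tested. The counting interval lay wholly above 1 for 4 enzymes and wholly below 1 for 4, where it did so for 31.4% and 18.6% of the genes tested, and the same numbers came out with reads halved. These counts describe genes chosen with the ratios known.

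**Figure D1:**
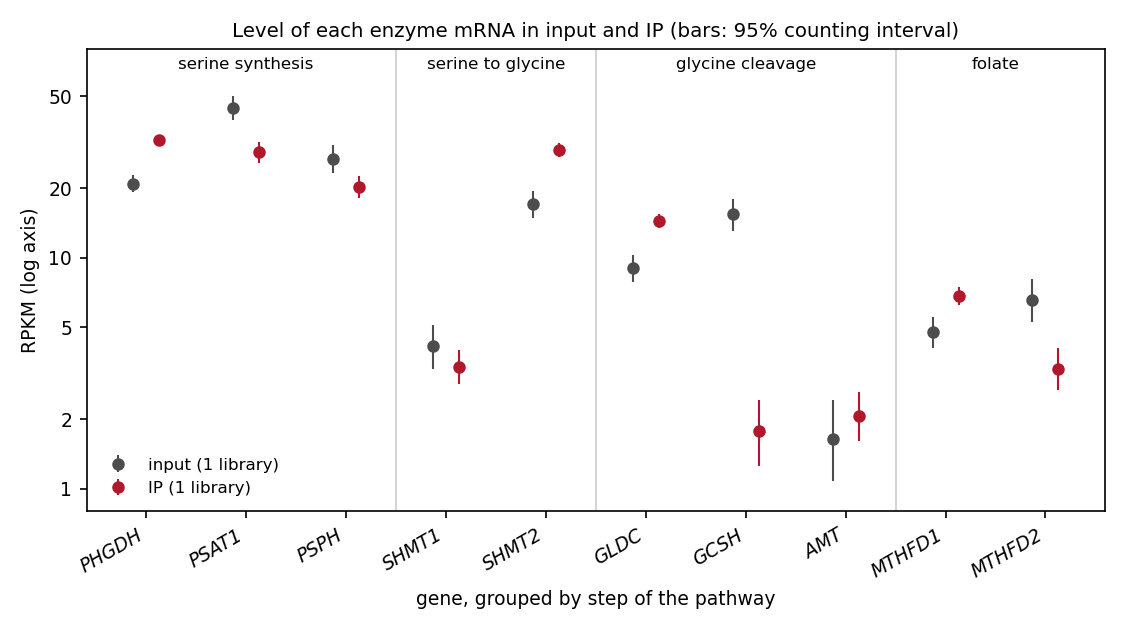
RPKM of each enzyme mRNA in the input (grey) and the IP (red), on a log axis, with 95% counting intervals as bars and 1 library per group. GCSH has the widest gap, from 15.4 RPKM in the input to 1.77 in the IP, while the neighbouring GLDC goes from 8.98 to 14.5.

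Among the enzymes of serine synthesis, the first was higher in the IP and the next steps were lower. PHGDH, the dehydrogenase that commits 3-phosphoglycerate to serine (chromosome 1, 119648411 to 119744218, plus strand), had 20.9 RPKM in the input and 32.4 in the IP, from 535 and 1755 reads. Its ratio was 1.55 (1.40 to 1.71, or 1.35 to 1.78 with reads halved). PSAT1, the aminotransferase of the next step (chromosome 9, 78297125 to 78330093, plus strand), had 44.6 RPKM in the input and 28.7 in the IP, from 274 and 373 reads. It was 1.56-fold lower in the IP (1.33 to 1.82), and the intervals of both genes stayed clear of 1 with reads halved. PSPH, the phosphatase that releases serine (chromosome 7, 56011051 to 56051604, minus strand), went from 26.8 to 20.3 RPKM, from 206 and 331 reads, a ratio of 0.758 (0.635 to 0.906).

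A ratio between genes does not depend on how the libraries are scaled to each other. PHGDH was 2.41 times as high relative to PSAT1 in the IP as in the input (2.00 to 2.91) and 2.04 times relative to PSPH (1.66 to 2.50), while PSPH against PSAT1 gave 1.18 (0.928 to 1.50), an interval that includes 1. Of the summed RPKM of the 3 genes, PHGDH made up 22.7% in the input and 39.8% in the IP, and PSAT1 48.3% and 35.2%. These percentages depend on the merged exon lengths, 9187 bases for PHGDH and 2206 for PSAT1. They do not rank the genes by amount of mRNA. None of the 3 genes shares exon bases with another listed gene on its strand.

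The cytosolic and mitochondrial hydroxymethyltransferases stood on either side of the middle of all genes. SHMT2, the mitochondrial form (chromosome 12, 57229573 to 57234935, plus strand), had 17.1 RPKM in the input and 29.3 in the IP, from 218 and 793 reads. Its ratio of 1.72 (1.48 to 2.00) was the highest of the 10 enzymes, at percentile 80.9 of the genes tested on the log2 scale. SHMT1, the cytosolic form (chromosome 17, 18327860 to 18363563, minus strand), had 4.15 RPKM in the input and 3.38 in the IP, from 84 and 145 reads, and its ratio of 0.814 had an interval that includes 1 (0.618 to 1.08). Relative to SHMT1, SHMT2 was 2.11 times as high in the IP as in the input (1.53 to 2.89, or 1.33 to 3.34 with reads halved).

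For the folate dehydrogenases the compartments were the other way round. MTHFD1, the trifunctional cytosolic enzyme (chromosome 14, 64388031 to 64463457, plus strand), had 4.77 RPKM in the input and 6.85 in the IP, from 162 and 493 reads, a ratio of 1.44 (1.20 to 1.73). MTHFD2, the mitochondrial dehydrogenase and cyclohydrolase that is high in many tumours (chromosome 2, 74198610 to 74217565, plus strand), had 6.56 RPKM in the input and 3.31 in the IP, from 88 and 94 reads. It was 1.98-fold lower (1.47 to 2.68) as a ratio of RPKM, and at -0.81 on the log2 scale with the pseudocount, at percentile 11.3 of the genes tested. MTHFD1 against MTHFD2 gave 2.85 (1.99 to 4.06), and the mitochondrial pair SHMT2 and MTHFD2 differed by 3.41 times (2.42 to 4.78). Ratios above 1 were found in both compartments, for 3 of 5 mitochondrial enzymes and 2 of 5 cytosolic ones. Of the 9719 protein-coding genes tested, 5875 had a ratio above 1.

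Within the glycine cleavage system, the H protein mRNA stood apart from the P, T and L protein mRNAs. GLDC, the decarboxylase that starts the reaction (chromosome 9, 6532467 to 6645729, minus strand), had 8.98 RPKM in the input and 14.5 in the IP, from 222 and 757 reads, a ratio of 1.61 (1.38 to 1.88). AMT, the aminomethyltransferase (chromosome 3, 49416778 to 49422685, minus strand), had 1.65 and 2.06 RPKM, from 26 and 69 reads, a ratio of 1.25 with an interval from 0.787 to 2.05. DLD had 27.6 and 26.9 RPKM, a ratio of 0.972 (0.861 to 1.10). GCSH (chromosome 16, 81081945 to 81096395, minus strand) had 15.4 RPKM in the input and 1.77 in the IP, from 156 and 38 reads.

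GCSH was thus 8.70-fold lower in the IP, with an interval of 5.22 to 15.2 when the reads are halved. GLDC was 14.0 times as high relative to GCSH in the IP as in the input (9.41 to 21.1), AMT 10.9 times (5.92 to 20.2) and DLD 8.46 times (5.76 to 12.6). Of the summed RPKM of the 4 components, GCSH made up 28.7% in the input and 3.92% in the IP, and GLDC 16.7% and 32.0%. These percentages likewise depend on merged exon lengths. GLDC against AMT gave 1.28 (0.766 to 2.10), which does not set them apart at the depth of AMT. Of the 14057 genes tested, 165 had a lower log2 ratio than GCSH (percentile 1.17). Among the 9719 protein-coding ones 1 did, or 9 by the ratio without the pseudocount. The 1 gene was VBP1, a subunit of the prefoldin chaperone, with 78 input and 18 IP reads. VBP1 was named after its values were seen.

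**Figure D2:**
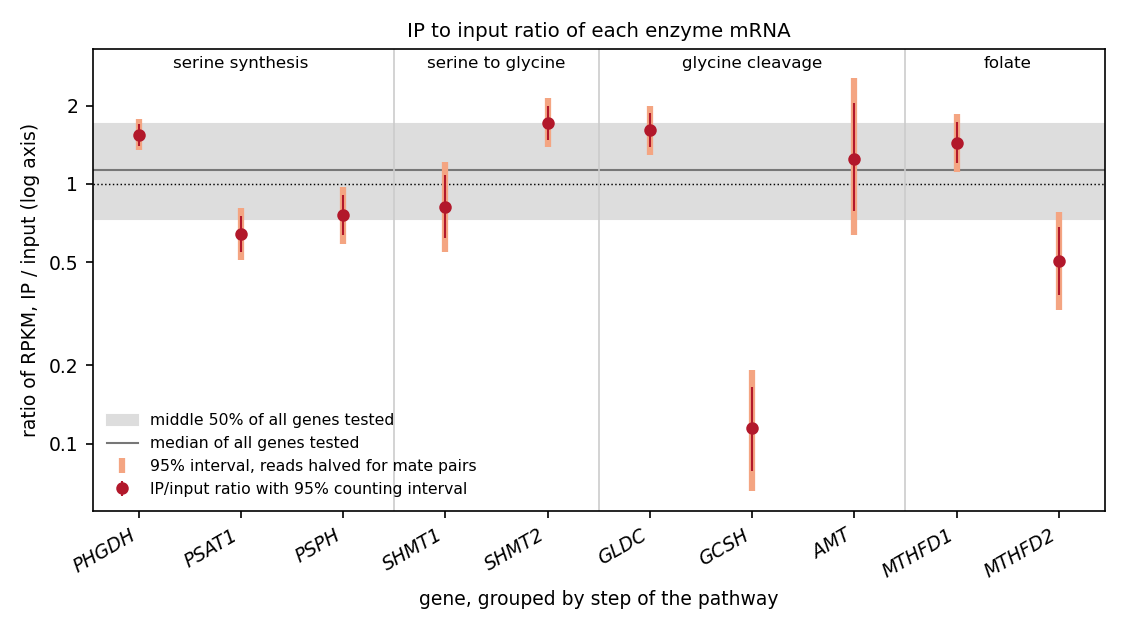
IP to input ratio of RPKM for each enzyme on a log axis, with 95% counting intervals (thin bars) and the intervals with reads halved (thick bars); the grey band and line show the interquartile range of all genes tested and their median. GCSH at 0.115 lies far below the band, and MTHFD2 and PSAT1 lie below its lower edge.

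GCSH and AMT were the 2 enzymes that share exon bases with other listed genes on the same strand, as 20.2% of the genes tested do. The clone-named AC092718.8 and AC092718.3 overlap 430 and 442 of the 3640 merged exon bases of GCSH, spread over all 4 of its exons. The third GCSH exon, of 64 bases, is shared whole, and of the 2650 bases of the last exon 132 are shared. AC092718.8 had 168 input and 49 IP reads, and AC092718.3 had 150 and 47, close to the 156 and 38 of GCSH. They were 7.27-fold (5.26 to 10.2) and 6.77-fold (4.85 to 9.60) lower in the IP, so the 3 overlapping entries gave like ratios. How many reads were counted for more than 1 of them cannot be told from totals per gene, and they are not 3 independent measurements.

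For AMT, the clone-named AC104452.1 overlaps 3555 of 5675 merged exon bases and had a ratio of 1.43 (0.925 to 2.28). NICN1, which encodes nicolin, overlaps 353 bases and had a ratio of 1.06 (0.520 to 2.30). These values lie on either side of the 1.25 of AMT, and all of their intervals include 1. AC104452.1 had 28 input and 85 IP reads, close to the 26 and 69 of AMT. How many reads were counted for both cannot be told, so these are not independent measurements. SHMT1, SHMT2, MTHFD1 and MTHFD2 overlap genes on the opposite strand only, which a strand-specific count keeps apart. The sources used here do not say whether counting used strand.

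Listed pseudogene copies held few reads. GCSHP3, a pseudogene copy of GCSH on chromosome 2, had 2 input and 14 IP reads, the opposite direction to its parent. PSPHP1 had 10 and 4. GLDCP1, PSAT1P3, PSAT1P4 and MTHFD1P1 had 0 input reads and 6, 4, 2 and 2 IP reads. Reads of a parent and its copy cannot be told apart where their sequences are the same. With the reads of GCSHP3 added to those of GCSH, 52 IP and 158 input reads, the sum was 6.44-fold lower in the IP (4.68 to 8.99).

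In the order of ratios, SHMT2, GLDC, PHGDH, MTHFD1, AMT, SHMT1, PSPH, PSAT1, MTHFD2 and GCSH, the interval of the ratio between neighbours included 1 at every step except the last. MTHFD2 against GCSH gave 4.39 (2.71 to 7.14). The order by level per merged exon base differed between the libraries. PSAT1, PSPH and PHGDH led the input in that order, while PHGDH, SHMT2 and PSAT1 led the IP, with SHMT2 and PSAT1 not set apart there (29.3 and 28.7 RPKM, a ratio of 1.02 from 0.902 to 1.16). GCSH was the fifth in the input, next to SHMT2, and the last in the IP, where its 1.77 RPKM was not set apart from the 2.06 of AMT. Levels divide by merged exons of all isoforms, which exceed the mature mRNA: AMT, for one, collapses to 2 merged exons.

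The deposited list of IP-enriched regions held 9 peaks in 5 of the enzymes: PHGDH (3), GLDC and SHMT2 (2 each), MTHFD1 and PSPH (1 each). A peak was found in 22.6% of all genes tested and 30.9% of the protein-coding ones. PHGDH, GLDC, SHMT2 and MTHFD1 had ratios above 1, where 48.5% of protein-coding genes carried a peak, and PSPH a ratio below 1, where 4.16% did. AMT, SHMT1, PSAT1, MTHFD2 and GCSH had 0 peaks. None of the 9 overlaps an exon of another listed gene on its strand. Peaks were called by the authors from the same 2 libraries, so they add no independent measurement.

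In the authors' deposited table, the PHGDH peaks had folds of 3.22, 2.10 and 2.73 (p = 6.59e-05, 3.58e-05 and 0.0178). They lie in merged exon 11 (chr1:119721360-119721410), in exon 17 (chr1:119729510-119729560) and across exons 19 and 20 (chr1:119734910-119735298) of 24, between 39.5% and 67.1% of the way along the merged exons. The SHMT2 peaks had folds of 2.31 and 2.18 in the authors' deposited table (p = 3.93e-05 and 0.000903). The first lies in exon 4 of 7 (chr12:57230730-57230880), and the second across exons 6 and 7 (chr12:57233593-57233854).

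In GLDC the authors' deposited table gave a fold of 3.66 (p = 0.000245) for a peak of 76 bases in exon 10 of 32 (chr9:6604677-6604752), and 2.44 (p = 0.0490) for one across exons 25 and 26 (chr9:6553373-6554682). The MTHFD1 peak, in exon 31 of 36 (chr14:64453759-64453834), had a fold of 2.21 in the authors' deposited table (p = 0.0367). The false discovery rate in the authors' deposited table exceeded 0.05 for 3 of the 9 peaks: the MTHFD1 peak (0.0755), the GLDC peak with the lower fold (0.0857) and the PHGDH peak across exons 19 and 20 (0.0510). Over all 7643 deposited peaks it ran up to 0.0865. The share of those above 0.05 was not worked out, so the 3 peaks are not set apart from the list.

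The PSPH peak differed from the other 8 in place and in fold. It covers 251 bases of the first merged exon (chr7:56051189-56051439), at exonic bases 166 to 416 from the 5′ end, in a gene whose ratio was 0.758. Its fold in the authors' deposited table was 33.9 (p = 0.00707, false discovery rate 0.0307), which is 16.0 times the ratio of IP to input reads of 2.12. All 390 deposited folds above 20 were whole multiples of that ratio to within 0.01, and what such a fold measures is not known here. The folds of the other peaks in the authors' deposited table ran from 2.10 to 3.66. Divided by the same ratio of reads, they ran from 0.990 to 1.72. Whether the deposited folds were already scaled for the reads of each library is not known here.

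**Figure D3:**
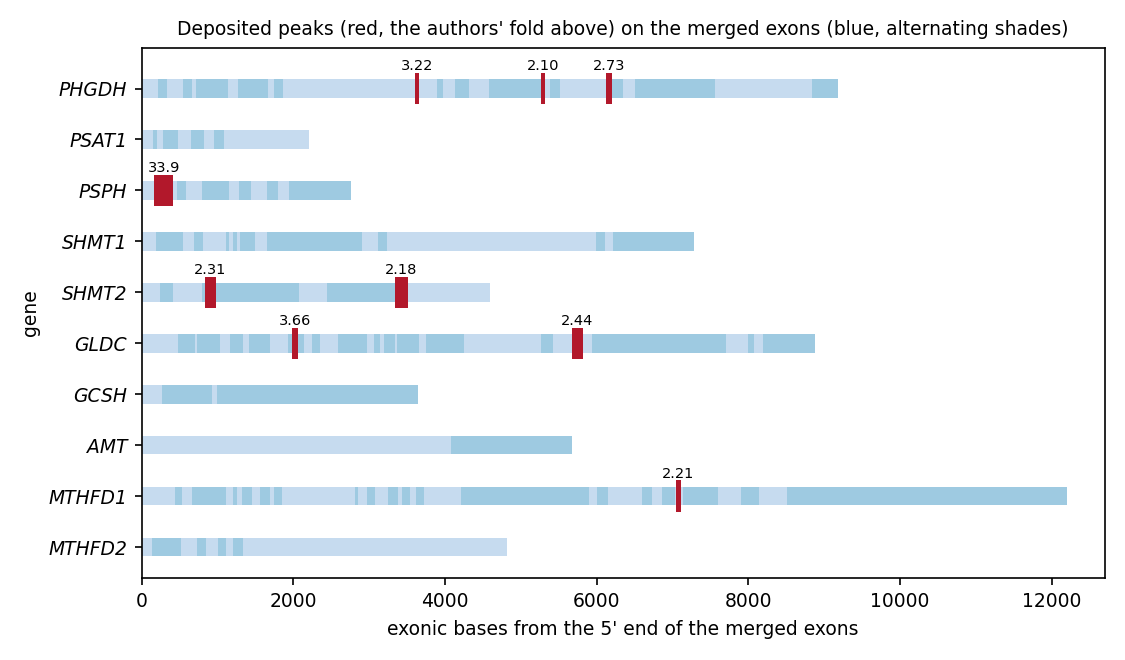
Deposited peaks (red, with the authors' fold above each) along the merged exons of each enzyme gene (blue, alternating shades), in exonic bases from the 5′ end. The 8 peaks of PHGDH, SHMT2, GLDC and MTHFD1 lie outside the first exon, and the PSPH peak lies in its first exon.

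Longer genes tended to have higher ratios, among the enzymes and among all protein-coding genes. Of the 5 enzyme genes with the shortest merged exons (PSAT1, PSPH, GCSH, SHMT2 and MTHFD2), 1 had a ratio above 1, and of the 5 longest 4 did. Of the protein-coding genes tested, of all lengths, 5875 of 9719 did. Spearman's rho between merged exon length and log2 ratio was 0.56 over the 10 enzymes, 0.48 without GCSH, and 0.21 over the 9719 protein-coding genes tested. These correlations are across genes of the same 2 libraries and are given as a description. With the protein-coding genes in 5 equal classes by length, the median log2 ratio was -0.01 in the shortest class and 0.35 in the longest.

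GCSH, at a log2 ratio of -2.57, lay far below its own length class of 2821 to 4267 bases, whose median was 0.09 and where 4.94% of genes were at least 2-fold lower. MTHFD2 (-0.81) and SHMT2 (0.75) fell on opposite sides of the same class, with a median of 0.15. The part of length in the other ratios was not tested.

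**Figure D4:**
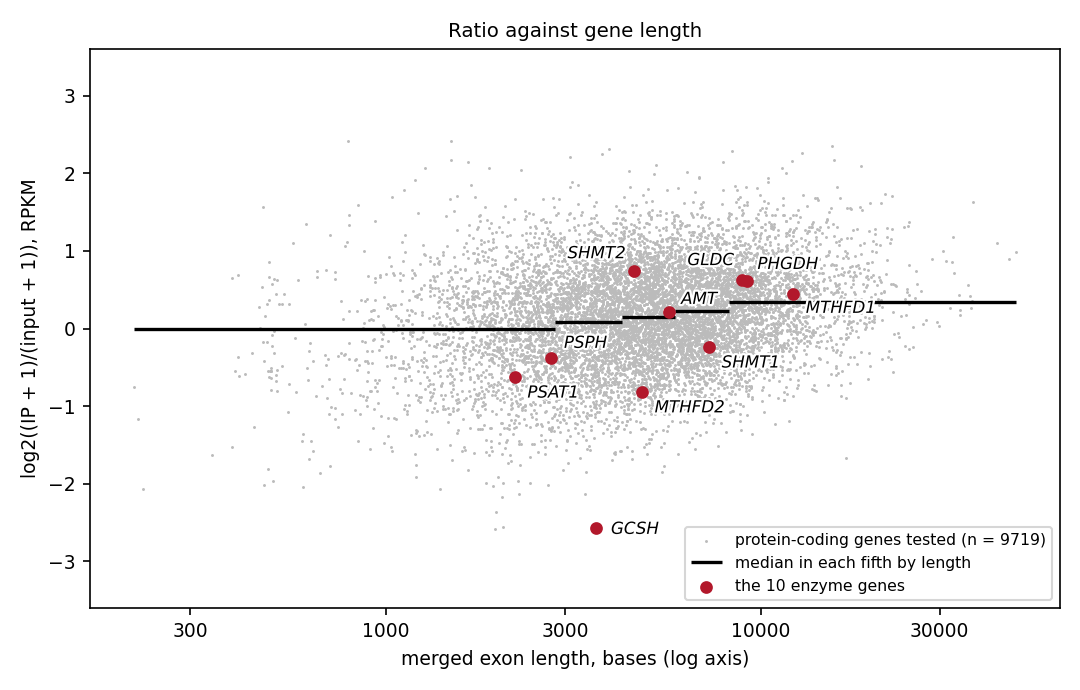
Log2 ratio against merged exon length (log axis) for the protein-coding genes tested (grey), with the median in each of 5 length classes (black) and the 10 enzyme genes (red). GCSH lies at -2.57, at the lower edge of the protein-coding genes, while GLDC, PHGDH and MTHFD1 lie above the median of the longest class.

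The side of 1 on which an enzyme stands depends on the scaling between the libraries. The values here are log2 ratios with the pseudocount. Centring on the median of all genes left 5 above and 5 below. Scaling to reads in protein-coding genes moved the median log2 ratio of all genes tested from 0.14 to -0.17 and put AMT below 0 (-0.05), with 4 enzymes above and 6 below. Scaling to the same RPKM sum moved that median to 1.21 and put all enzymes but GCSH above 0. With that last scaling 60.6% of all genes tested were at least 2-fold higher, so the count is no trait of the enzymes. GCSH stayed lower at -2.71, -2.98 and -1.65 with these 3 scalings.

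Related gene lists were set beside the median log2 ratio of all genes tested, 0.14. The 2-fold counts of each gene list below use the log2 scale with the pseudocount. On that scale, 8.25% of all genes tested were at least 2-fold lower and 11.3% at least 2-fold higher. In folate interconversion and transport, 1 of 9 genes tested was at least 2-fold lower and 0 were higher, with a median log2 ratio of 0.25. GGH, the hydrolase that trims folate polyglutamates, was lowest at 0.391 times its input level (0.313 to 0.486). The folate carriers SLC19A1 and SLC46A1 were highest, at 1.55 times (1.30 to 1.84) and 1.52 times (1.21 to 1.94). The mitochondrial formate-releasing enzyme MTHFD1L, at 1.32 times (1.01 to 1.73), was not set apart from its cytosolic relative MTHFD1 (0.918, from 0.664 to 1.28).

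In the methionine cycle and transsulfuration, 0 of 11 genes tested passed 2-fold either way on the log2 scale with the pseudocount. Their median was 0.04. Of all genes tested, 8.25% were lower and 11.3% higher by that limit. MAT2B, the regulatory subunit of S-adenosylmethionine synthase, was lowest at 0.445 times (0.342 to 0.578), or -0.99 on the log2 scale with the pseudocount. The liver form MAT1A was at 0.558 times (0.304 to 1.03). Methionine synthase MTR, which takes its methyl group from folate, was at 1.56 times (1.28 to 1.91) with 4 peaks. CTH, which makes cysteine, was at 2.36 times (0.790 to 9.49) from 20 IP and 4 input reads, or 0.59 on that log2 scale. The lipoate and E3 list had 2 genes tested, DLD and the lipoyltransferase LIPT1 at 0.354 times (0.169 to 0.727, 15 and 20 reads), with a median of -0.51.

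Among other serine and glycine enzymes, 1 of 11 genes tested was at least 2-fold higher and 0 were lower, with a median of 0.24. Of all genes tested, 11.3% were higher and 8.25% lower by that limit. GLYCTK, a glycerate kinase, was highest at 2.97 times (1.98 to 4.59), followed by the sarcosine dehydrogenase SARDH at 1.94 times (1.40 to 2.74). The creatine pathway enzyme GATM and the dimethylglycine dehydrogenase DMGDH were lowest, at 0.695 times (0.452 to 1.08) and 0.786 times (0.529 to 1.18). Of 7 carriers tested, 0 passed 2-fold, with a median of 0.04. They ran from SLC38A1 at 0.676 times (0.574 to 0.797) and the mitochondrial serine carrier SFXN1 at 0.764 times (0.564 to 1.04) to SLC1A4 at 1.57 times (1.04 to 2.45) and SLC1A5 at 1.61 times (1.31 to 1.99).

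Purine synthesis, which uses formyl groups carried on folate, had a median of -0.40 on the log2 scale with the pseudocount. On that scale 0 of 7 genes were past 2-fold. PRPS1 and ADSL were lowest, at 0.586 times (0.467 to 0.738) and 0.579 times (0.489 to 0.686). PFAS was highest at 2.04 times (1.49 to 2.83), or 0.82 on that log2 scale. GART, which uses formyl-tetrahydrofolate, was at 1.21 times (0.990 to 1.48). For regulators of the response to amino acid shortage the median was 0.41. Of the 10 genes 2 were higher by at least 2-fold and 0 lower, where 11.3% and 8.25% of all genes tested were. CEBPB and MYC were highest, at 3.19 times (2.33 to 4.45) and 2.75 times (2.17 to 3.52), and the antioxidant regulator NFE2L2 and the asparagine synthetase ASNS lowest, at 0.707 times (0.635 to 0.787) and 0.830 times (0.497 to 1.42). ATF4, the activator of the serine synthesis genes, was at 1.22 times (1.13 to 1.31), from 926 and 2386 reads.

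**Figure D5:**
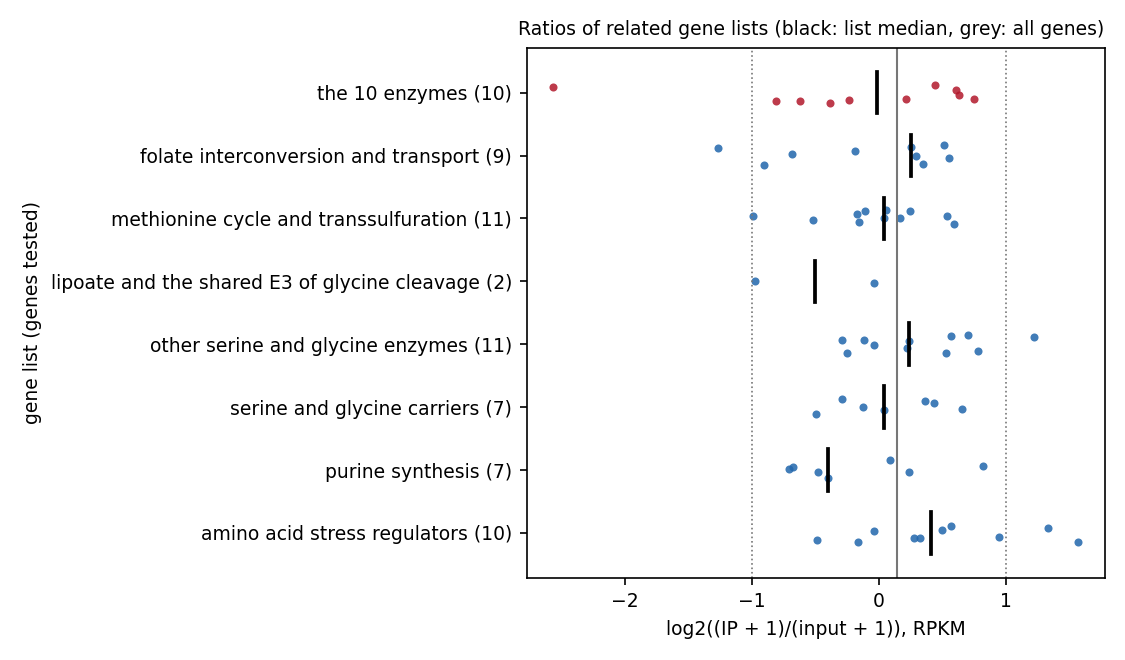
Log2 ratio of each gene tested in the 10 enzymes (red) and in 7 related gene lists (blue), with list medians (black), the median of all genes tested (grey line) and the 2-fold limits (dotted). The point of GCSH at -2.57 lies below every gene of the other lists, the lowest of which is GGH at -1.27.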

How the data were processed

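RNA was sequenced from 1 IP and 1 input library of Huh-7 cells, and samples were grouped by title. The submitters' processing notes name Trimmomatic and the aligner STAR 2.5.3a. The sources used here do not give the counter, annotation, peak caller or genome build, so coordinates are those of the deposited tables. The authors deposited RPKM values, although the header names no unit: multiplied by merged exon length, each column adds up to an equal total. All values were whole multiples of 1 read within 0.01 of a read, which gave the reads used for intervals. Of the input counts of the 10 enzymes 9 were even, and of the IP counts 2. Each peak has a fold (ratio), p-value, false discovery rate and score from the authors, per the file headers. Molecular tags remove PCR copies only if used in counting, which is not stated.

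The value per gene was log2((IP + 1)/(input + 1)) where the mean of both libraries was 1 RPKM or more. Single genes are given as ratios without the pseudocount, with exact conditional (Clopper-Pearson) intervals, and ratios between genes with conditional odds ratio intervals. Peaks were assigned by at least 1 exonic base on the same strand. RNA classes came from RefSeq by symbol (19414 matched, 6142 not). Intervals were tried on simulated libraries of independent read counts, which is what the intervals assume. That trial does not cover mates counted together or differences between replicate libraries. No p-value was computed. The enzymes and lists were chosen with earlier results of these data known. The text names all 10 enzymes, their copies, genes that share their exons, and the 2 highest and 2 lowest of each list, and DLD, MTHFD1L, MTR, GART, ATF4 and VBP1 beside them; 1 gene of this rule is not reported here. Other settings were scaling, pseudocount, filters, peak limits and, added after seeing the data, halved reads. The software was Python 3.11.15 with scipy 1.17.1, numpy 2.4.6, matplotlib 3.10.9 and pandas 2.3.3.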

Additional observations from a re-analysis of the deposited data

How the results depend on the processing

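GCSH was the 1 enzyme at least 2-fold lower with centring, after equalising the RPKM sums, at pseudocounts of 0.1 and 0, without a filter and at a minimum mean of 5 RPKM. In that order, 10.4%, 3.20%, 12.2%, 12.9%, 5.92% and 8.48% of all genes were at least 2-fold lower. With scaling to reads in protein-coding genes 3 enzymes were (GCSH, MTHFD2 and PSAT1), where 15.2% of all genes then were. Among the 8 enzymes that share no exon bases 0 were, since GCSH shares some, where 8.02% of all genes that share none were. Equalising the RPKM sums gave 5 enzymes at least 2-fold higher in place of 0, where 60.6% of all genes then were, and a median log2 ratio of 1.00 against 1.21 for all genes. The other settings gave 0 higher and medians from -0.31 to 0.44. A false discovery rate of at most 0.01 left 3 enzymes with a peak (PHGDH, SHMT2 and GLDC) in place of 5. The share of all genes with a peak at that limit was not worked out, so this count has no background. No paired analysis was possible because each group has 1 library, and for the same reason no library could be left out. Depth limits AMT most, with 26 input reads.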
